A study of Oryctolagus cuniculus with 3 samples.

Results

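TP63 codes for p63, a transcription factor that stratified epithelia need to form and to keep their basal progenitor cells. The gene has alternative promoters. One gives TA forms, which carry a transactivation domain, and the other gives deltaN forms, which lack it and are the main forms of basal epithelial cells. Splicing at the 3′ end adds alpha, beta and gamma tails. In the cornea, nuclear p63 is used as a marker of limbal and basal epithelial cells, and in skin p63 directly controls keratins, and genes of hemidesmosomes and desmosomes.

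TP63 was found by its symbol in each of 3 deposited tables. It takes up 5 of 38696 coding rows, and is 1 of 20536 gene names. A coding row is 1 protein-coding sequence with a RefSeq protein accession. The samples were 3 RNA libraries, 1 per stage, from RCE1(5T5), an established rabbit corneal epithelial cell line: non-differentiated (day 4 of culture), committed (day 6) and terminally differentiated (day 10). All cultures were started on a feeder layer of 3T3 mouse fibroblasts, which mitomycin C keeps from dividing, in medium with serum, insulin, hydrocortisone, cholera toxin and epidermal growth factor, and EDTA was used to take the feeder layer off before lysis. Stage, day and library cannot be told apart, no difference has a replicate check, and no p-value is given.

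The libraries held between 10171693 and 12582706 fragments, with fragments counted for 14527 to 14994 genes. Levels are CPM (fragments scaled to library size and by TMM, which evens out library composition) when 1 gene is followed across libraries, and the authors' TPM (scaled for length and depth) when genes are compared with each other. A gene rose or fell when log2(CPM + 1) differed by at least 2-fold, a description of size, and genes under 1 CPM in every library were not counted. Brackets give 95% intervals from the number of fragments. They cover counting error only, since reads copied by PCR are not separate molecules and the spread between cultures is not known.

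TP63 was lowest in non-differentiated cells, highest in committed cells and in between in terminally differentiated cells. Its coding rows together had 608.1 fragments (day 4), 1948.0 (day 6) and 1271.0 (day 10). This was 55.8 CPM [51.5 to 60.4], 161.6 CPM [154.5 to 168.9] and 119.7 CPM [113.2 to 126.5]. No pair of these intervals overlaps. TP63 therefore rose 2.90-fold [2.64 to 3.18] from day 4 to day 6, was 1.35-fold lower [1.26 to 1.45] on day 10 than on day 6, which is short of the 2-fold mark, and on day 10 stood 2.15-fold [1.95 to 2.37] above day 4. The last value passed 2-fold with TMM and with DESeq2 size factors, but not with plain library size (1.95-fold) or the deposited TPM (1.63-fold).

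In the deposited TPM, summed over the 5 rows, the levels were 30.7, 70.6 and 50.0 on days 4, 6 and 10. By TPM, TP63 ranked 3880th of 13990 genes with a value above 0 on day 4, 1570th of 14074 on day 6 and 2039th of 14366 on day 10. It was thus within the upper 27.7%, 11.2% and 14.2% of detected genes. TPM moves the median gene lower on the later days: the median difference of all measured genes was -0.30 on the log2 scale from day 4 to day 6 and -0.31 from day 4 to day 10. Relative to that median, TP63 differed by 1.47 and 1.00 with TPM, against 1.52 and 1.08 with TMM.

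**Figure D1:**
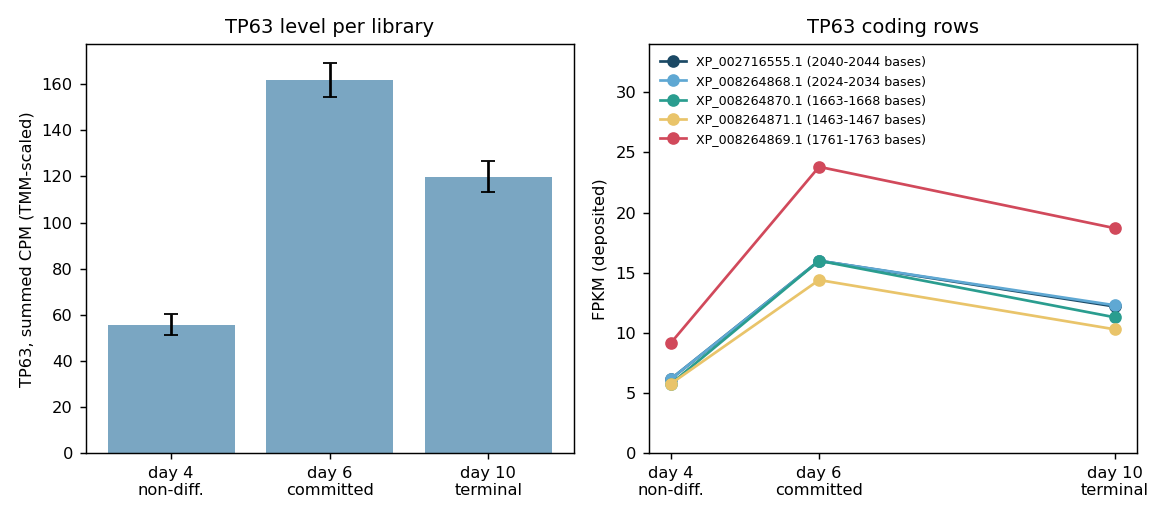
Left, summed TP63 level in TMM-scaled CPM (y axis, bars from 0) in the library of each stage, with the 95% counting interval as error bar; right, the authors' FPKM (y axis) of each TP63 coding row against day in culture, with the implied coding length in the legend. The bars stand at 55.8, 161.6 and 119.7 CPM, and all 5 rows are highest on day 6, with XP_008264869.1 above the others at each stage.

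The 5 rows had coding lengths that follow from the ratio of the deposited counts to the FPKM and RPKM. XP_002716555.1 came out at 2040 to 2044 bases and XP_008264868.1 at 2024 to 2034 bases. XP_008264869.1 was at 1761 to 1763 bases, XP_008264870.1 at 1663 to 1668 and XP_008264871.1 at 1463 to 1467. The tables do not say which of these is a TA or a deltaN form, or which tail each has, and no form is assigned here. All 5 accessions recur, apart from their version, among the 8 TP63 proteins of a later RefSeq annotation on assembly mOryCun1.1.

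XP_008264869.1 held more fragments than any other row in each library: 164.2, 527.5 and 358.4 on days 4, 6 and 10. Its FPKM was 9.2, 23.8 and 18.7. The longest row, XP_002716555.1, had 129.2, 411.5 and 272.4 fragments, at FPKM 6.2, 16.0 and 12.2. By FPKM, XP_008264869.1 was thus 1.48, 1.49 and 1.53 times as high as the longest row, a ratio nearly constant over the stages. The deposited TPM of these rows lay closer together. It was 8.1 against 5.8 on day 4, 18.6 against 13.3 on day 6 and 13.6 against 9.6 on day 10.

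XP_008264868.1 followed the longest row within 0.5, 2.8 and 0.8 fragments. XP_008264870.1 had 98.9, 334.8 and 204.7 fragments, and the shortest row, XP_008264871.1, had 87.1, 265.5 and 163.9. By FPKM, the shortest row was at 0.935, 0.90 and 0.844 of the longest on days 4, 6 and 10. The rows moved together: each rose from day 4 to day 6, by 2.75-fold to 3.06-fold, and each was 1.30-fold to 1.44-fold lower on day 10 than on day 6.

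The share of TP63 fragments given to XP_008264869.1 was 27.0% [23.5 to 30.7] on day 4, 27.1% [25.1 to 29.1] on day 6 and 28.2% [25.7 to 30.8] on day 10. The share of XP_008264871.1 was 14.3% [11.6 to 17.4], 13.6% [12.1 to 15.2] and 12.9% [11.1 to 14.9]. These exact binomial intervals overlap, so no shift between rows was detectable at this depth. Fragments from sequence common to several rows were divided among them before deposit, so the rows are not independent of each other and a shift in the use of 1 form would be damped in these shares.

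The libraries were checked against markers of their labelled cell type. KRT5, PERP, CDH1, EPCAM, ITGA6, ITGB4, DSP and KRT15, 8 epithelial markers, all had fragments in each library and summed to 18870, 26680 and 17050 CPM on days 4, 6 and 10. KRT5 made up most of that sum, with 15650, 23370 and 13550 CPM, while CDH1, EPCAM and ITGA6 were lower on day 6 than on day 4 by less than 2-fold. The corneal markers KRT3, KRT12 and PAX6 summed to 191.8, 1100 and 2497 CPM, with KRT12 at 0 fragments on day 4. Of 15 fibroblast and feeder markers in the tables, 14 had fragments in each library, with LUM at 0, and their sum went from 7271 to 4780 and then 2966 CPM. THY1 of that list went the other way, with 214, 202 and 817 fragments, and rose from day 6 to day 10. In melanocyte, immune, endothelial and goblet lists the sum was at most 69.5 CPM, reached by the immune list on day 10 through CD68, a gene of lysosomes and macrophages, with MLANA, TYR, DCT, CD3E, TYROBP, PECAM1 and TFF1 at 0 throughout. PMEL, a melanosome gene of the melanocyte list, had 16, 94 and 303 fragments and rose at each step, and the sum of that list went from 4.13 to 9.04 and 31.6 CPM. In bulk RNA, fewer cells of a type and less RNA per cell cannot be told apart. The part of the fibroblast markers in the TP63 values was not tested.

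TP63 was also set against epithelial genes of the same libraries. From day 4 to day 6 its fragments increased relative to 7 of the 8 epithelial markers, with the counting interval above 1 for each. KRT5, ITGA6, ITGB4, PERP and DSP among the 8 are also on the list of p63 targets of adhesion and structure used below. The ratio to ITGA6, the integrin alpha chain of hemidesmosomes, was 4.06-fold higher [3.68 to 4.48]. The ratio to CDH1, the epithelial cadherin, was 4.04-fold higher [3.64 to 4.49], and that to KRT5, a basal keratin and known p63 target, 1.94-fold higher [1.77 to 2.12]. The smallest of the 7 increases was that relative to PERP, at 1.45-fold [1.31 to 1.61]. The exception was KRT15, a keratin of basal and limbal cells, against which TP63 was 0.418-fold [0.347 to 0.504]. The corneal markers, which are not among the 8, rose at this step too. KRT3 rose 6.38-fold and PAX6 3.01-fold, beside 2.90-fold for TP63, and KRT12 went from 0 to 233 fragments.

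From day 6 to day 10, TP63 was lower relative to 6 of the 8, with intervals below 1. Its ratio to KRT5 was 1.28-fold higher [1.19 to 1.37] and that to CDH1 0.999-fold [0.909 to 1.10]. Over the whole interval TP63 was higher relative to 6 of the 8 and lower relative to KRT15 and PERP. KRT5 was per length 291 times as high as TP63 on day 4, 145 times on day 6 and 117 times on day 10.

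The first step, from non-differentiated to committed cells, was set against all genes and against lists of genes tied to p63 in human and mouse keratinocytes. Of 12818 measured genes, 8.06% rose and 6.73% fell, and 361 had a larger difference than the 1.52 of TP63 on the log2 scale. Among known p63 targets of adhesion and structure, 1 of 17 measured members rose and 3 fell; their median difference was 0.05, against 0.00 for all genes. The riser was EVPL, the envelope protein envoplakin, with 467, 1233 and 1391 fragments on days 4, 6 and 10. Its rise by day 6 was 2.39-fold [2.14 to 2.66] and was not called with TPM. Among those that fell were LAMA3, a laminin chain of the epithelial basement membrane, which went from 5421 to 2777 fragments, and DSC3, a desmosomal cadherin, from 1744 to 879. PERP, a desmosome protein that p63 controls in mouse skin, was at 194.6 and 388.4 CPM, a difference of 0.99 just under the mark.

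Transcription and chromatin genes placed downstream of p63 were mostly on the low side at this step. Of 16 measured, 1 rose and 4 fell, with a median of -0.57, beside 8.06% and 6.73% of all measured genes. EHF, an epithelial ETS factor, had 235 fragments on day 4 and 1003 on day 6 and rose 3.86-fold [3.34 to 4.47]. Among those that fell, the homeobox genes DLX3 and DLX5 went from 72 to 8 and from 32 to 5 fragments, and GRHL3, a grainyhead factor of barrier formation, from 426 to 189. With TPM the number that fell was 7, but over all genes TPM also called more as fallen, 1629 against 863.

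Of 12 measured signalling and growth genes on the p63 list, 1 rose and 1 fell (median 0.19). The shares over all measured genes were 8.06% and 6.73%, so these counts are no result about the list. WNT4, a secreted WNT ligand, rose 2.76-fold [2.30 to 3.32]. It was at 14.6, 40.2 and 24.6 CPM on days 4, 6 and 10, the order of stages of TP63, and its first TPM difference of 0.99 misses the mark. HBEGF, a ligand of the EGF receptor, fell 5.01-fold [3.78 to 6.72] to 5.06 CPM. FGFR2, a growth factor receptor under p63 control, was at 81.0, 145.6 and 117.9 CPM on days 4, 6 and 10, like TP63 highest on day 6 and lowest on day 4, but with differences under 2-fold. EGFR was at 203.1, 180.6 and 192.7 CPM. In the metabolism and redox list TXNRD1, a thioredoxin reductase, fell 5.12-fold [4.60 to 5.72], and the other 2 measured genes neither rose nor fell.

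Of 6 measured genes that deltaNp63 is known to repress, 1 rose and 0 fell at the first step, beside 8.06% and 6.73% of all genes, so these counts are no result about the list. The other 5 members were lower on day 6 than on day 4 by less than 2-fold, and the median was -0.31. The riser was CDKN2B, an inhibitor of G1 kinases, which had 49, 154 and 267 fragments on days 4, 6 and 10 and rose 2.84-fold [2.05 to 4.00] to day 6, a call lost with a pseudocount of 5. CDKN1A, the p21 inhibitor of the cell cycle, was at 102.3 CPM on day 4 and 76.7 on day 6, and SFN, the 14-3-3 sigma protein, at 1347 and 1017 CPM. With TPM, 1 of the 6 was called as fallen.

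The second step, from committed to terminally differentiated cells, had 8.25% of measured genes rising and 7.1% falling. Of the adhesion and structure targets 3 of 17 rose and 1 fell (median 0.34). LAMA3 was among the risers and went from 2777 to 6470 fragments. FRAS1, a basement membrane protein, had 5, 16 and 110 fragments over the days and rose 7.81-fold [4.60 to 14.1] from day 6, a call lost with TPM, where the gene is under 1 in each library. CDH3, a basal cadherin and p63 target in human, fell from 1961 to 641 fragments. Of the transcription and chromatin targets 0 of 16 and of the signalling targets 0 of 12 rose or fell; with a pseudocount of 0.1, 2 of the former rose.

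Of the genes that deltaNp63 is known to repress, 2 of 6 rose and 1 fell at the second step, beside 8.25% and 7.1% of all genes. HES1, a Notch target, rose 2.34-fold [2.02 to 2.72] and CDKN1A 2.18-fold [2.02 to 2.37], from 925 to 1778 fragments. SFN fell 2.48-fold [2.40 to 2.57], from 12268 to 4350 fragments.

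Over the whole interval 17.1% of genes rose and 15.8% fell, and 1960 of the 12818 had a larger difference than the 1.09 of TP63. Of the 17 adhesion and structure targets 3 rose and 0 fell: FRAS1, EVPL and PERP, the last by 2.52-fold [2.40 to 2.66]. With TPM only EVPL was called. Of the 16 transcription and chromatin targets 2 rose, EHF by 6.93-fold [6.04 to 7.98] and GATA3 from 5.14 to 11.9 CPM (not called without TMM or with TPM), while 4 fell, a number that was 1 with a pseudocount of 5 and 8 with TPM. Of the metabolism and redox list GPX2, a glutathione peroxidase, rose 2.30-fold [2.00 to 2.67], a call lost with TPM, and TXNRD1 fell.

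**Figure D2:**
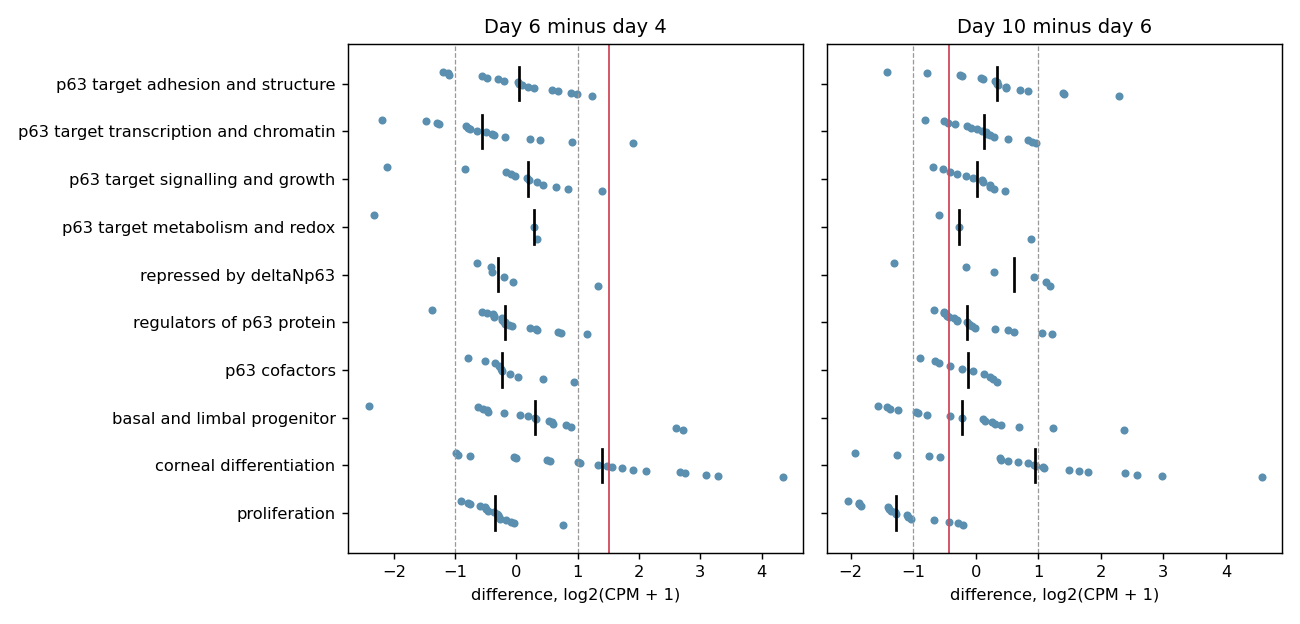
Difference in log2(CPM + 1) (x axis) of each measured member of 10 gene lists (y axis, points, TP63 left out) from day 4 to day 6 (left) and day 6 to day 10 (right); black bars are list medians, dashed lines the 2-fold mark and the red line TP63. The first step shows TP63 at 1.52, to the right of every member of the p63 target lists other than EHF, and the second shows it at -0.43.

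Genes listed as regulators of the p63 protein were read separately, since the values here are RNA only. Of 19 measured regulators 1 rose and 1 fell at the first step (median -0.19) and 2 rose and 0 fell at the second (median -0.13). Of all measured genes 8.06% rose and 6.73% fell at the first step, and 8.25% and 7.1% at the second. The regulator counts are thus no result about the list. ITCH, a ubiquitin ligase that marks p63 for destruction, had 902, 879 and 1814 fragments on days 4, 6 and 10. It was at 82.8 and 72.9 CPM over the first step and rose 2.34-fold [2.16 to 2.54] over the second. WWP1, a ligase of the same family, had 366, 657 and 1216 fragments and rose 2.10-fold [1.91 to 2.32] from day 6 to day 10, where TPM gave a difference of 0.99.

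NEDD4, another ligase of that family, went the other way, from 1446 to 610 and 333 fragments, and fell 2.62-fold [2.39 to 2.89] by day 6. USP28, a deubiquitinase known to stabilise deltaNp63 in human squamous tumours, rose 2.30-fold [1.94 to 2.72] by day 6, a call lost with TPM, and on day 10 stood 3.31-fold [2.82 to 3.90] above day 4. STXBP4, a binding partner that protects deltaNp63, was at 10.5, 8.79 and 6.03 CPM. MDM2, a ubiquitin ligase, was at 458.8, 309.3 and 229.3 CPM.

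Among 10 measured cofactors of p63, 0 rose and 0 fell at either step, apart from 1 fall with TPM and 1 rise with a pseudocount of 0.1 at the first. Of all measured genes 8.06% rose and 6.73% fell at the first step, and 8.25% and 7.1% at the second. The cofactor counts are thus no result about the list. From day 4 to day 10 DNMT3A, a DNA methyltransferase that acts with p63 at enhancers, rose 2.65-fold [1.99 to 3.57], a call lost with TPM. SSRP1, a chromatin factor that helps p63 activate genes, fell from 6785 to 2990 fragments. SOX2, a partner of p63 in squamous cells, stayed under 1 CPM with 7 to 10 fragments per library.

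The lists of corneal differentiation and proliferation genes were set beside TP63. Over all measured genes, 8.06% rose and 6.73% fell at the first step, and 8.25% and 7.1% at the second. Of 20 measured corneal differentiation genes 12 rose and 0 fell at the first step, or 10 and 3 with TPM, and 9 rose and 2 fell at the second. PAX6, a master regulator of the eye, was 42.2, 127.1 and 358.0 CPM; its first step, with a difference of 1.57, was close to that of TP63, and its second was 1.49 where that of TP63 was -0.43. TKT, a transketolase abundant in the cornea, had the order of stages of TP63, at 1003, 2514 and 1500 CPM. GJB2, a connexin, was at 114.6, 230.1 and 95.3 CPM and TGM1, a crosslinking enzyme, at 8.54, 30.6 and 7.35 CPM, both highest on day 6 but lowest on day 10. Of 16 proliferation genes 0 rose or fell at the first step (3 fell with TPM), and 12 fell and 0 rose at the second. MKI67, a proliferation marker, was at 341.6, 304.0 and 147.3 CPM, so on day 10 it stood below its day 4 level while TP63 stood above its own. TYMS, an enzyme of thymidylate synthesis in the same list, had 501, 942 and 614 fragments, the order of stages of TP63 with differences under 2-fold.

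Other basal and limbal progenitor genes did not follow 1 course. Of 17 measured besides TP63, 2 rose and 1 fell at the first step, and 2 rose and 4 fell at the second. Over all measured genes, 8.06% rose and 6.73% fell at the first step, and 8.25% and 7.1% at the second. KRT15 had 164, 1256 and 5736 fragments and TXNIP, a thioredoxin inhibitor, 290, 2022 and 4188; both rose at each step. KRT17, a keratin of activated basal cells, had 2033, 1447 and 424 fragments and fell at the second. CDH2, the neural cadherin of limbal cells, fell from 167 to 25 and then to 2 fragments, and the call at the second step was lost with TPM. CEBPD, a factor of resting limbal cells, was at 23.8, 42.6 and 51.4 CPM, and BMI1, a Polycomb protein of stem cells, at 18.0, 12.7 and 14.2 CPM.

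The course of TP63 over the 3 libraries was set against that of other genes. Of the 1033 genes that rose from day 4 to day 6, 393 were lower on day 10 than on day 6, and 179 of these still stood at least 2-fold above day 4. Likeness to TP63 was measured as the distance between the pairs of log2 differences of both steps, over 8316 named genes with at least 10 CPM in the highest library. Of these, 11 lay within 0.2 of TP63, and how many genes lie as near to other genes was not counted. The nearest 8 were SYT12, a synaptotagmin, at 0.080, HSBP1, which binds heat shock factor 1, at 0.095, TMEM107, a protein of the cilium, at 0.114, LYSMD2 at 0.127, ACVR1B, an activin receptor, at 0.130, STX10, a syntaxin of vesicle traffic, at 0.131, ACE, the angiotensin-converting enzyme, at 0.155 and ECI1, an enzyme of fatty acid oxidation, at 0.156. ACVR1B, for example, had 79, 283 and 199 fragments. A likeness over 3 libraries rests on 2 differences per gene.

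**Figure D3:**
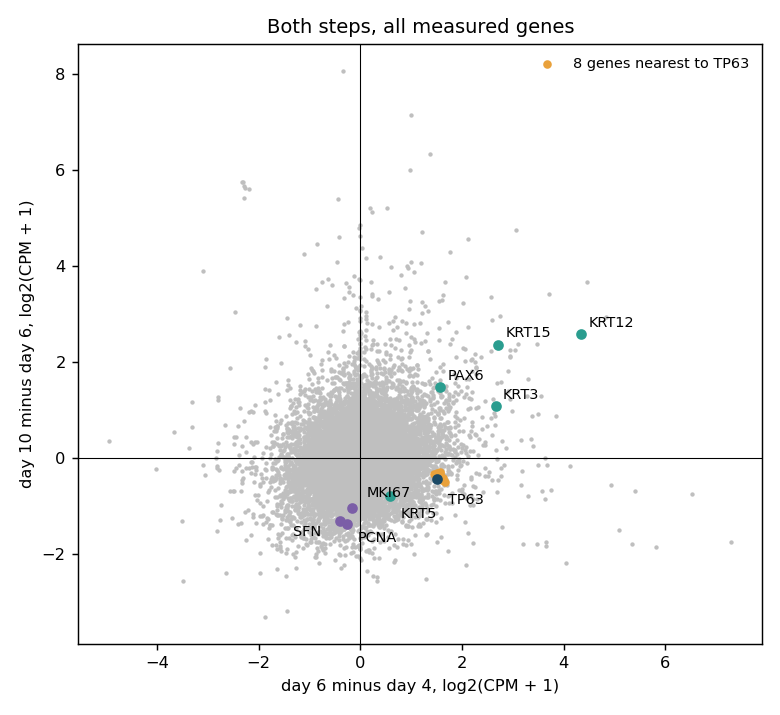
Difference in log2(CPM + 1) from day 4 to day 6 (x axis) against that from day 6 to day 10 (y axis) for 12818 measured genes (grey, 1 point per gene), with TP63, its 8 nearest genes and some named genes marked. TP63 lies right of and below the centre at 1.52 and -0.43, PAX6 and KRT15 lie up and to the right, and MKI67, PCNA and SFN lie below.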

How the data were processed

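RNA was sequenced in 3 libraries, 1 per stage. The deposited fragment and read counts per coding row are expected counts, here meaning fractional and not scaled, per the file headers and values. Of values above 0 in genes with 2 rows, 94.3% to 94.7% were multiples of 0.5 within 0.05, as an even split of shared fragments would give. The values of single rows are thus not taken as estimates of the abundance of each form. Whether a model of form abundance was used before deposit was not tested. The authors also deposited a raw transcript count, a coverage signal, and FPKM, RPKM and TPM, which are scaled for length and depth. The genome build named is OryCun2.0, per the submitters' processing notes. Which aligner and counting program were used, and whether strand was, is not given in the sources used here.

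Fragments were summed per gene and rounded, and scaled by TMM in edgeR 4.0.16 (R 4.3.3); no test was run. DESeq2 1.42.0 gave alternative size factors. LOC names took a symbol from a RefSeq table of mOryCun1.1 in 671 of 5185 cases. TP63 and all lists were chosen with earlier results of these data known. Genes named were fixed key and family genes, up to 3 members with the largest rise or fall per list and step, and the nearest genes by course. Further list members were named after their values were seen. Key genes KRT14, FGFR3 and JAG2 were not analysed here. Interval and fold code was tested on simulated data.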

Additional observations from a re-analysis of the deposited data

How the results depend on the processing

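The difference of TP63 from day 4 to day 6 stayed past 2-fold, and that from day 6 to day 10 stayed negative and under 2-fold, with each other scaling, pseudocount, the highest coding row and read counts. From day 4 to day 10 the log2 difference was 0.95 with library size without TMM and 0.69 with the deposited TPM, both short of 2-fold. At a 4-fold threshold the values of 1.52 and 1.09 were no longer called. With TPM, 558 genes rose and 1629 fell from day 4 to day 6, against 1033 and 863, and 1383 rose from day 4 to day 10, against 2190. The share of risers among changed genes from day 4 to day 6 was 54.5%, 39.3% without TMM and 25.5% with TPM; from day 4 to day 10 it was 52.0%, 44.1% and 31.9%. With a pseudocount of 5 the genes that rose and fell were 472 and 451, 562 and 452, and 1324 and 1319 in the order of the 3 comparisons; at 4-fold they were 151 and 86, 215 and 32, and 603 and 396. By TPM the share of XP_008264871.1 was 17.9%, 17.0% and 16.2% on days 4, 6 and 10, that of XP_002716555.1 18.8% on day 6 and 19.2% on day 10, and that of XP_008264868.1 19.0% on day 6. The rank of TP63 was 6226, 3537 and 4227 with only the highest row of each gene, and 3032, 1003 and 1338 by CPM, which is not per length. Of 462 list counts under alternatives, 47 moved by over 1.5 times. No paired analysis was possible because each stage has 1 library and no result comes from a test. Leaving out a library would remove a stage.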

Other observations

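In the mOryCun1.1 assembly the 3 nearest protein-coding genes on each side of TP63 are P3H2, CLDN1 and CLDN16, and TPRG1, LPP and BCL6. None had the order of stages seen for TP63, but the share of all genes with that order was not counted. TPRG1 and CLDN16 were under 1 CPM in every library and could not show an order. P3H2, a prolyl hydroxylase of collagen, had 2736, 1734 and 1820 fragments on days 4, 6 and 10, and neither rose nor fell. CLDN1, a tight junction protein and p63 target in skin, was at 55.5, 59.1 and 106.1 CPM. LPP, a focal adhesion protein, was at 14.6, 18.7 and 22.2 CPM. TPRG1, named for its link to p63, had 0, 1 and 2 fragments, and CLDN16, a claudin of the kidney, had 0 in each library. BCL6, a transcriptional repressor, had 67, 123 and 432 fragments and rose 3.99-fold [3.26 to 4.91] from day 6 to day 10, the step at which TP63 was 1.35-fold lower.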
